A study of Mus musculus with 4 samples.

Results

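Testicular organoids (TOs) rebuilt from dissociated mouse testes were searched for barcodes that held messages of round spermatids, the haploid cells that form after the second meiotic division. Every barcode of the 2 TO libraries with at most 10% of its unique molecular identifiers (UMIs, 1 per captured RNA molecule) from mitochondrial (mt-) genes was taken, with no limit on its genes or UMIs, and a barcode counted as a member when at least 3 of the 8 genes Tex36, Ccer1, Chd5, Sun5, Acrv1, Spaca1, Zpbp and Spaca3 had a UMI. The rule found 80 members among 24494 TO barcodes, 25 in TO replicate 1 and 55 in TO replicate 2. The same rule found 14924 members among 23208 barcodes of the mouse testes, 8603 in testis replicate 1 and 6321 in testis replicate 2. All 4 libraries together held 51139 barcodes before the mitochondrial limit.

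The study compared single-cell RNA sequencing of TOs with that of testes from mice of 28 days, with 2 libraries in each group, made on the 10x Genomics Chromium platform with 3′ counting. TOs were made from cells of early postnatal ICR mouse testes, which formed spheroids in microwells and were then embedded in matrix and cultured at an air–liquid interface. The labels carry no genotype or agent that differs between the groups. The TOs are taken as 28 days old from the series design, and the study's own text gives the same age, although the dissociation protocol of the labels names day 21. According to the study the TOs came from independent batches and the testis libraries were biological replicates, whereas the labels do not tie the libraries to animals or cultures, and p-values measure only the spread between these libraries. Total depth was 106577822 and 119966959 UMIs in TO replicates 1 and 2, and 77016449 and 74988295 UMIs in testis replicates 1 and 2.

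A round spermatid builds the acrosome, a secretory vesicle over the nucleus that carries the enzymes for egg penetration, and starts the axoneme of the flagellum. Its genes are switched on by the germ cell activator CREM and its partners, and many of its messages are stored before they are translated. Later the spermatid elongates, its histones are replaced first by transition proteins and then by protamines, and the nucleus is shaped and condensed. The messages of the transition proteins and protamines are made while the spermatid is still round, before the proteins appear. Gene lists for these steps were used to describe the members, and none of them contains the 8 genes of the rule.

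Members were rare in TOs and frequent in testes. They made up 0.193% of the TO replicate 1 barcodes within the mitochondrial limit (exact binomial 95% interval 0.125 to 0.284%) and 0.478% of those of TO replicate 2 (0.360 to 0.622%), against 72.9% and 55.4% in the testes. TO libraries averaged 0.335 ± 0.202% and testis libraries 64.2 ± 12.3% (SD, n = 2 libraries each), and the exact two-sided permutation test gave p = 0.333, the smallest p that 2 against 2 libraries allow. Both TO libraries lay far below both testis libraries. These shares were chosen by the rule and are a description, and the intervals cover counting error only.

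Barcodes of other cells also passed the rule in the testes. Among testis barcodes with at least 5 of 12 Sertoli cell genes, which should lack spermatid messages, 64.2% and 42.5% also passed the rule. In TOs the same check gave 7 of 4338 barcodes (0.161%) and 11 of 1932 barcodes (0.569%), which is about the share of members among all TO barcodes. The share in TOs, read alone, therefore did not stand above that of Sertoli gene barcodes in the same libraries, and the content of each member was examined instead. None of the 80 TO members carried a barcode sequence found in another library, while pairs of libraries shared 30 to 55 barcode sequences over all barcodes. Shared sequences were rare among all TO barcodes too (146 of 14643 and 139 of 12491), so their absence from 80 members decides little.

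**Figure D1:**
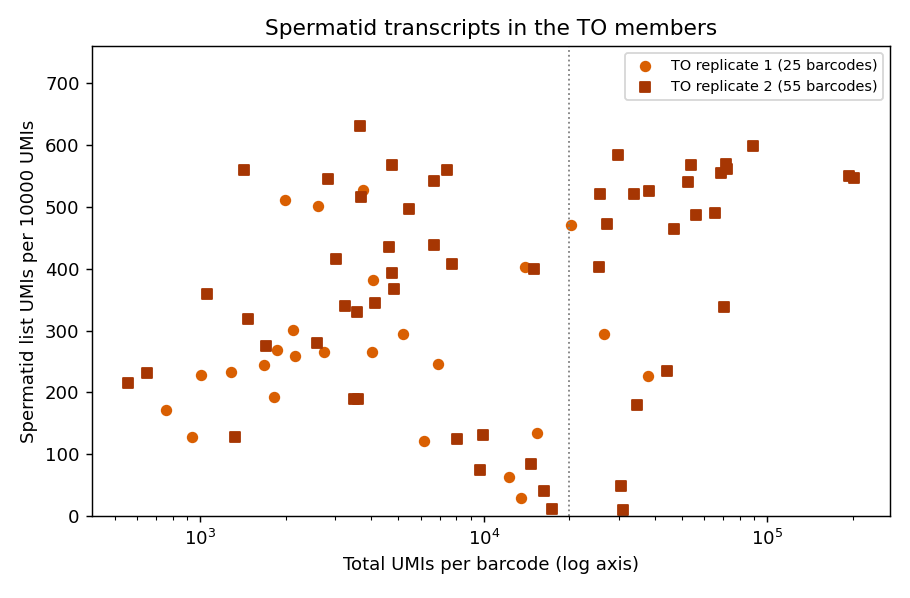
Total UMIs per barcode (x axis, log scale) against UMIs per 10000 from the 130 genes of the 7 spermatid lists (y axis), with 1 point per TO member and a dotted line at 20000 UMIs. Of the 80 points 72 lie above 100 on the y axis, and the 8 points below it lie between 9692 and 30885 UMIs.

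The barcodes just inside and just outside the threshold are given as a description. Over 7 lists with 130 spermatid genes, TO barcodes with 2 rule genes had a median of 15.9 and 13.96 spermatid list UMIs per 10000 UMIs (120 and 148 barcodes in TO replicates 1 and 2, with a median depth of 13547 and 12982 UMIs). Those with exactly 3 rule genes, just inside the threshold, had medians of 233 and 128 (9 and 11 barcodes, with a median depth of 2128 and 9692 UMIs), and the lowest member of TO replicate 2, at 10.0, lay under the median with 2 rule genes. In TO replicate 2, the 11 barcodes with all 8 rule genes reached a median of 520. The step between 2 and 3 rule genes was smaller in testes, where the medians were 307 and 617 with 2 genes and 467 and 665 with 3. These values follow from the rule's threshold and differ in depth, and they were not tested. Testis barcodes with 0 rule genes had medians of 219 and 382, and 66.8% and 78.5% of them held more UMIs of germ cell lists than of somatic lists.

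Not every TO member held many UMIs of the spermatid lists. In 8 of the 80 members, 2 in TO replicate 1 and 6 in TO replicate 2, fewer than 100 of every 10000 UMIs came from the spermatid lists, with lowest values of 29.6 and 10.0, and these 8 had between 9692 and 30885 UMIs. The other 72 members had medians of 266 and 438 and highest values of 527 and 631. Some of these held few late spermatid and many spermatocyte UMIs. A TO replicate 2 member of 70441 UMIs had 338 per 10000, with 5 late spermatid, 442 late spermatocyte and 302 early spermatocyte UMIs. A TO replicate 1 member of 37957 UMIs had 227 per 10000, with 0, 179 and 177 such UMIs. In 75 of the 80 members (22 of 25 and 53 of 55) more UMIs came from germ cell lists than from somatic lists, which is called germ-dominant below, and in the testes 94.6% and 97.2% of the members were germ-dominant. Of TO barcodes with 2 rule genes, 67.5% and 60.1% were germ-dominant too, and of those with 0 rule genes 8.88% and 7.04%. Most of the members thus held mainly germ cell messages among the list genes, which their choice by germ genes favoured. Since transition protein and protamine messages were nearly absent from them and the late spermatocyte list overlapped with testis members (values below), they are called members and not round spermatids.

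TO members spanned a wide range of depth. The median was 3758 UMIs in TO replicate 1 (lowest 759, highest 37957) and 9692 UMIs in TO replicate 2 (lowest 559, highest 202276), against 3047 and 3489 UMIs in the testes. Members with at least 20000 UMIs numbered 3 and 22, and these 25 barcodes held 44.4% of the member UMIs in TO replicate 1 and 88.0% in TO replicate 2. The 2 deepest barcodes of each TO library alone held 33.8% and 25.6% of its member UMIs. In TO replicate 2 a profile summed over members is thus mainly a profile of its deepest barcodes, and in TO replicate 1 they weigh heavily. Depth is treated as a separate axis below. The study's limits of 1000 to 5000 genes and at most 20000 UMIs would have kept 18 and 25 members. The doublet caller Scrublet placed 3 and 4 members in its top-scoring share.

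The mitochondrial share of the members was low in both groups. Its median was 1.81% and 1.52% in TO members and 3.60% and 3.58% in the other TO barcodes, and 0.583% and 0.564% in testis members. In 22 of the 80 TO members it exceeded 5%. The share of UMIs from X-linked genes, many of which are silenced from pachytene onward in male germ cells, had a median of 1.96% and 1.44% in TO members. Other TO barcodes had 3.67% and 3.81%, and testis members had 1.36% and 1.07%. On this measure, which the rule did not use, TO members lay nearer to testis members than to the other barcodes of their own library.

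**Figure D2:**
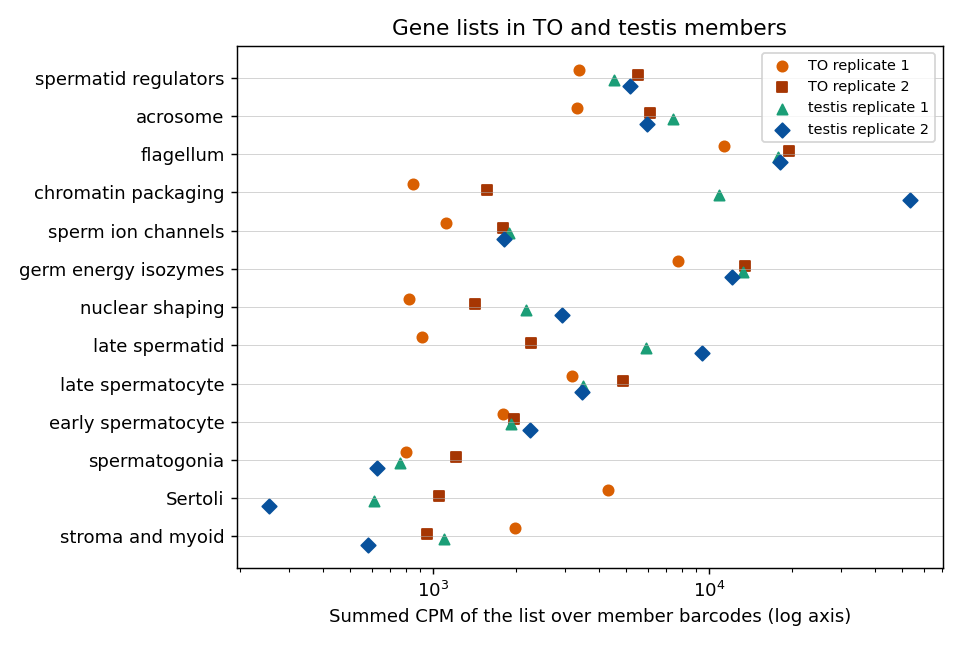
Summed level of each gene list (counts per 1000000 UMIs, CPM, log scale) in the members of each of the 4 libraries, with 1 point per library. On the acrosome, flagellum and energy lists TO replicate 2 lies among or above the testis libraries, whereas the chromatin packaging and late spermatid lists are lower in both TO libraries than in both testis libraries.

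Genes of the regulator, acrosome, flagellum, energy and ion channel lists, called the early lists here, were detected in TO members. They were summed over members and scaled to counts per 1000000 UMIs (CPM). Whether these lists separate spermatids from late spermatocytes was not tested. The regulator list, 15 genes that include Crem and its coactivator Fhl5, reached 3381 and 5550 CPM in TO replicates 1 and 2 and 4540 and 5160 CPM in testis replicates 1 and 2. The 24 acrosome genes summed to 3328 and 6129 CPM in TOs and 7427 and 5941 CPM in testes. The TO libraries overlapped the testis libraries on both lists, but not in the sum over members under 20000 UMIs, as given below. The 32 flagellum genes summed to 11288 and 19412 CPM in TOs and 17776 and 18034 CPM in testes, and the 14 energy genes, the germ cell forms of glycolytic and respiratory enzymes, to 7740 and 13547 CPM against 13230 and 12080 CPM. On each of these 4 lists TO replicate 1 was below both testis libraries, and TO replicate 2 was above at least one of them. The 17 ion channel genes, which include the CatSper calcium channel subunits of the sperm tail, summed to 1115 and 1794 CPM against 1879 and 1814 CPM, so both TO libraries were below both testis libraries there.

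The members were then compared as library sums across 20158 genes with edgeR's quasi-likelihood test, and a call needed an adjusted p (Benjamini-Hochberg) under 0.01 and a fold change above 2. In this test 2.74% of all genes tested were lower in TO members and 0.308% were higher. The background is therefore a few percent of genes lower in TOs, and the counts of each list are read against it. Of the regulators, 1 of 15 fell (Fhl5, 26.2 and 23.9 CPM in TOs, 236 and 197 CPM in testes, log2 fold change −3.43 ± 0.64 SE, adjusted p = 0.00309) and 0 rose. Of the acrosome genes, 1 of 24 fell (Actl9, an actin-related protein of the acrosome region), with a median log2 fold change of −1.23 over the list against −0.22 over all genes tested, and 15 of the 24 did not overlap between the groups (14 lower and 1 higher in TOs), as did 52.2% of all genes tested. Of the flagellum genes, 1 of 32 fell (Fscb, a protein of the fibrous sheath), and of the ion channel genes 1 of 17 (Atp1a4, the sodium pump subunit of sperm). Of the 14 energy genes, edgeR called 0 in either direction, with 3 lower and 0 higher at an unadjusted p under 0.05, and DESeq2 called 1 lower. Of all 20158 genes tested, 3767 had an unadjusted edgeR p under 0.05 in either direction, and DESeq2 called 538 lower.

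The 3 most abundant genes of each of these lists in testis members differed in direction, and none of them passed the test. Acrbp, which binds the acrosomal protease proacrosin, was 256 and 427 CPM in TOs and 556 and 393 CPM in testes. Spink2, an inhibitor of acrosomal proteases, was 1423 and 2601 CPM against 2090 and 1992 CPM. The 2 groups overlapped on both genes, whereas Spata46, a further gene of the acrosome list, was 73.3 and 188 CPM against 646 and 276 CPM, lower in both TO libraries. Meig1, which is needed to assemble the flagellum, was 2480 and 5788 CPM against 5006 and 4861 CPM, and Ropn1l, a fibrous sheath protein, was 1434 and 3324 CPM against 2690 and 2435 CPM. Rsph1, a protein of the radial spokes of the axoneme, was 2402 and 3356 CPM against 1661 and 2144 CPM, higher in both TO libraries. Ldhc, the lactate dehydrogenase of germ cells, was 2543 and 5492 CPM against 5118 and 4215 CPM, Cox8c, a respiratory chain subunit of the testis, 2229 and 2864 CPM against 2643 and 2582 CPM, and Ldhal6b, a relative of Ldhc, 686 and 1631 CPM against 1075 and 1064 CPM, with overlap on all of them. Ybx2, which stores mRNA in germ cells, was 1099 and 1575 CPM in TOs and 1161 and 1499 CPM in testes, and Tbpl1, a relative of the TATA-binding protein that spermatids require, was 638 and 1541 CPM against 762 and 952 CPM. The transcription factor Spz1 was 36.6 and 104 CPM against 289 and 631 CPM, lower in both TO libraries. For the CatSper complex, Catsperz was 340 and 1088 CPM in TOs and 694 and 798 CPM in testes. Its partner Efcab9 was 52.3 and 132 CPM against 218 and 144 CPM, lower in both TO libraries than in both testis libraries, and the channel subunit Catsper2 136 and 207 CPM against 111 and 129 CPM, higher in both. Lower levels in both TO libraries were also found for 4 genes named after their values were seen: Izumo2, of the acrosome list, was 31.4 and 71.0 CPM in TOs and 238 and 332 CPM in testes. Odf3, a protein of the outer dense fibres, was 31.4 and 74.9 CPM against 498 and 331 CPM, and Ropn1 and Akap4, proteins of the fibrous sheath, were 141 and 372 CPM against 943 and 1176 CPM, and 47.1 and 64.6 CPM against 219 and 430 CPM. These 4 did not pass the test between all members. Failing the threshold does not show that these levels were equal.

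In contrast, the chromatin packaging genes were low in TO members. The 12 genes of this list, which package the haploid genome, summed to 843 and 1574 CPM in TOs and to 10851 and 53670 CPM in testes. Testis members were not separated by spermatid stage, and their packaging level varied widely from barcode to barcode (ranges below). How far the gaps on this list and on the late spermatid list reflect a different mix of stages was not tested. Of the 12 genes, 8 fell (Tnp1, Tnp2, Prm1, Prm2, Prm3, H1fnt, Hmgb4 and Cdyl) and 0 rose, and the median log2 fold change was −4.99 against −0.22 over all genes tested. In members under 20000 UMIs edgeR called 0 of the 12, with 10 of them at an unadjusted p under 0.05. Of all 19028 genes tested there, 3957 had such a p in either direction. The calls were also lost without TO replicate 1 and without TO replicate 2. Such a fit leaves 1 TO library, so the testis libraries alone give the spread and few genes of any kind can pass. The same holds for each fit below that leaves out a TO library. In these 3 alternatives the fitted fold changes of all 12 genes were below 0. That of Phf7 was −0.04 without TO replicate 1, −1.64 without TO replicate 2 and −2.04 in members under 20000 UMIs. Testis barcodes with at least 5 Sertoli genes held 2575 and 4176 CPM of Prm1, and the part of such RNA from other cells in the testis levels was not tested. In TO barcodes with at least 5 Sertoli genes, Prm1 was 0.0613 and 0.204 CPM.

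The transition proteins, which replace the histones, and the protamines, which then compact the DNA, were nearly absent. Tnp1 was 15.7 and 26.5 CPM in TO members and 1402 and 7076 CPM in testis members (log2 fold change −7.86 ± 1.62 SE, adjusted p = 0.00625). Tnp2 had 0 and 3 UMIs in TO members, and 1593 and 10743 CPM in testis members, which was 924-fold higher in testis replicate 1 (95% counting interval 316 to 4481) and 6232-fold higher in testis replicate 2 (2132 to 30219) than over both TO libraries. Prm1 was 5.23 and 1.94 CPM against 3154 and 15132 CPM (−12.12 ± 2.37, adjusted p = 0.00432). Prm2 was 26.2 and 4.52 CPM against 1341 and 16317 CPM (−10.20 ± 2.25, adjusted p = 0.0095), and the Prm3 gene, which lies beside them, was 31.4 and 60.7 CPM against 609 and 783 CPM (−4.10 ± 0.87, adjusted p = 0.00734). Tnp1, Tnp2, Prm1 and Prm2 together gave 9 UMIs in TO replicate 1 and 54 UMIs in TO replicate 2, 63 of 1740340 member UMIs in all. They came from 6 of the 25 and 20 of the 55 members, and no TO member had more than 14.

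Other proteins of packaging followed the same direction. H1fnt, a linker histone of elongating spermatids, was 0 and 2.58 CPM in TOs and 156 and 535 CPM in testes (log2 fold change −7.52 ± 1.08 SE, adjusted p = 0.000574). Hmgb4, a high mobility group protein of germ cells, was 36.6 and 8.39 CPM against 495 and 983 CPM (−5.88 ± 1.00, adjusted p = 0.00163), and Cdyl, a chromodomain protein that acts on histone marks, was 36.6 and 13.6 CPM against 200 and 178 CPM (−3.56 ± 0.65, adjusted p = 0.00253). Hils1, another linker histone of spermatids, was 36.6 and 208 CPM against 744 and 703 CPM and did not pass (adjusted p = 0.102). For each of these 4 genes both TO libraries were below both testis libraries.

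Phf7 held most of the UMIs of the list in TO members. It is a chromatin reader and ubiquitin ligase that acts on histones before they are replaced, and it was 638 and 1229 CPM in TO members and 1134 and 1189 CPM in testis members (log2 fold change −0.58 ± 0.93 SE, adjusted p = 0.841). This overlap rested on the deep members of TO replicate 2: in members under 20000 UMIs Phf7 was 442 and 349 CPM in TOs and 1008 and 966 CPM in testes, and within the study's limits on genes and UMIs its log2 fold change was −1.62 (unadjusted p = 0.0031). Phf7 gave 75.8% and 78.1% of the packaging UMIs of the TO members, against 10.5% and 2.21% in testes. Without Phf7 the list summed to 204 and 345 CPM in TOs and 9717 and 52482 CPM in testes. The other genes that missed the threshold were Hist1h1t, the testis linker histone of spermatocytes, at 15.7 and 12.9 CPM against 21.3 and 22.7 CPM, and Hist1h2ba, a histone of meiotic and spermatid chromatin, at 0 and 3.87 CPM against 3.11 and 10.2 CPM.

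**Figure D3:**
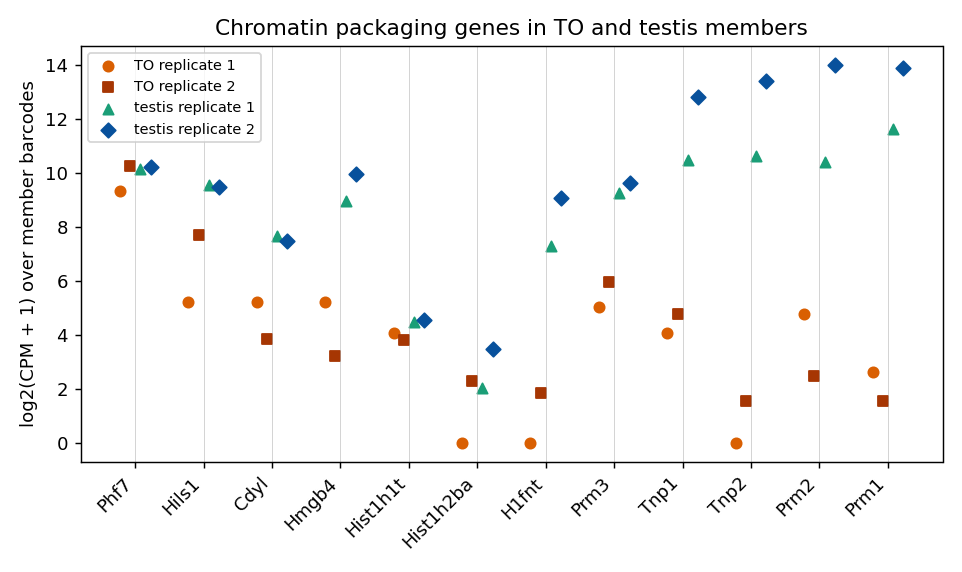
Level of the 12 chromatin packaging genes as log2(CPM + 1) over the members of each library (y axis), with 1 point per gene and library. For Phf7 the 4 libraries lie close together, and for Tnp1, Tnp2, Prm1 and Prm2 both TO libraries lie far below both testis libraries.

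The promoters of Phf7 and of Tnp1 and Prm1 are shown because these genes of one list had such different levels in TO members. They were searched on both strands for the cyclic AMP response element TGACGTCA and for its shorter form TGACG, which is part of the longer one. They are the 300 bases from 250 before to 50 after the RefSeq start in GRCm38.p6, on the minus strand, and capitals mark TGACG or its reverse complement.
Phf7 (chr14:31251266-31251565, chromatin reader): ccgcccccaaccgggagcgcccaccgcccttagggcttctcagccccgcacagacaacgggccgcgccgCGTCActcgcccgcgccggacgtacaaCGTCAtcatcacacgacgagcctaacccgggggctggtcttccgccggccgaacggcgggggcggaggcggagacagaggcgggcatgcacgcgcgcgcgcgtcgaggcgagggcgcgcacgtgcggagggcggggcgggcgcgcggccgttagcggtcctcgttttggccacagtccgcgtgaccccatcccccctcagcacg
Tnp1 (chr1:73015850-73016149, transition protein): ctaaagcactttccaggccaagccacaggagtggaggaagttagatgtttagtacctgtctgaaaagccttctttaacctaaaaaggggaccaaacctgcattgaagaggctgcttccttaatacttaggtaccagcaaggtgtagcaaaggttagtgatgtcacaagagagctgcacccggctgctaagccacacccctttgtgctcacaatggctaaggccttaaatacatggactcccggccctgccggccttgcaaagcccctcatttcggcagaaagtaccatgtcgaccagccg
Prm1 (chr16:10796774-10797073, protamine): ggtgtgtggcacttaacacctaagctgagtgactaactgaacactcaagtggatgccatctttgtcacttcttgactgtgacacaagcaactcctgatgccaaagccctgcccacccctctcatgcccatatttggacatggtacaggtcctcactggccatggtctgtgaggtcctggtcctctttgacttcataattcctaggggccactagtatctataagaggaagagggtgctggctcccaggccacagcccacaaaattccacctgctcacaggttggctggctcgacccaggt
The Phf7 window holds the shorter form at 2 positions, and the Tnp1 and Prm1 windows hold it at none. TGACGTCA occurred in 1.88% of all 27025 promoters of this length, and TGACG in 21.0%. Of the 12 packaging genes 9 had a promoter in the table, and 1 of these (Phf7) held TGACG. None of them held the full motif. Of the 7 rule genes with a promoter in the table, 4 held TGACG and none the full motif. Forms that differ from TGACGTCA by a single letter were not searched. The Tnp1 and Prm1 windows each hold such a form, TGATGTCA and TGACTTCA. A match describes the letters of these windows and not a site, and a missing match does not show that a site is lacking.

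The late spermatid programme was also low. This list of 18 genes, most of which are expressed as the spermatid elongates, summed to 911 and 2268 CPM in TO members and 5921 and 9421 CPM in testis members. Of the 18, 8 fell and 0 rose, with a median log2 fold change of −3.33. The calls were lost when either TO library was left out. In members under 20000 UMIs edgeR called 0, and 17 were lower at an unadjusted p under 0.05. Of all 19028 genes tested there, 3957 had such a p in either direction. Lelp1, Tssk6, Car2 and Spem1 had no UMI in any TO member, and were 75.01 and 313, 61.7 and 381, 21.2 and 239, and 21.7 and 120 CPM in testis replicates 1 and 2. Against the floor of 3 counts over both TO libraries, they were at least 43.5-fold, 35.8-fold, 12.3-fold and 12.6-fold higher in testis replicate 1, and at least 182-fold, 221-fold, 138-fold and 69.9-fold higher in testis replicate 2. Tssk6 is a kinase of late spermatids, and Spem1 helps to remove their cytoplasm. Spata3 had 1 UMI in TO members and was 258-fold higher in testis replicate 1 (95% counting interval 46.2 to 10175) and 1151-fold higher in testis replicate 2 (207 to 45463). Cypt4, a protein of the perinuclear theca, was 26.2 and 49.7 CPM in TOs and 632 and 381 CPM in testes (−3.88 ± 0.80 SE, adjusted p = 0.00646), and Spata18 and Hspa1l, a heat shock protein of spermatids, fell as well. Among those that did not pass, Smcp, which is part of the mitochondrial capsule of the sperm midpiece, was 99.4 and 210 CPM against 943 and 2042 CPM (−3.53 ± 1.02 SE, adjusted p = 0.0465), Dbil5 215 and 538 CPM against 775 and 1535 CPM, and Gsg1 188 and 394 CPM against 920 and 1359 CPM.

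Genes that shape the nucleus were lower in sum in TO members. Kifc5b went the other way, at 10.5 and 7.75 CPM in TOs against 4.12 and 3.60 CPM in testes, with few UMIs in TOs. The 14 genes summed to 816 and 1422 CPM in TO members and 2174 and 2932 CPM in testis members, and 4 fell, Ccin, Actrt2, Spem2 and Spem1 (the last also stands on the late spermatid list). As for all genes in this comparison, edgeR called none of them lower without TO replicate 1, without TO replicate 2, within the study's limits on genes and UMIs and in members under 20000 UMIs. Actrt2, an actin-related protein of the perinuclear theca, was 10.5 and 6.45 CPM in TOs and 286 and 454 CPM in testes (log2 fold change −5.93 ± 0.85 SE, adjusted p = 0.000574). Ccin, the gene of calicin in the same structure, had no UMI in TO members, and 64.2 and 53.7 CPM in testis members, at least 37.2-fold and 31.1-fold higher. Spata6, which is needed for the connecting piece of the sperm head and tail, was 283 and 545 CPM in TOs and 598 and 929 CPM in testes and did not pass, nor did Cylc2, the gene of a cylicin, at 110 and 170 CPM against 311 and 335 CPM.

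Outside the lists, 5 genes had the largest falls. Cabs1, a calcium-binding protein of elongate spermatids, was 111 and 632 CPM in testis members, H2al2a, a histone variant of condensing spermatids, 159 and 571 CPM, and Iqcf1 241 and 434 CPM. Their counts in TO members were 0, so that their levels in testis replicate 1 were at least 64.4-fold, 92.1-fold and 139.97-fold higher, and in testis replicate 2 at least 366-fold, 331-fold and 252-fold higher. Dnajb8 and 1700042G07Rik, also at 0 in TO members, were at least 48.8-fold and 52.7-fold higher in testis replicate 1, and at least 229-fold and 209-fold in testis replicate 2.

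The comparison was repeated with germ-dominant members alone, which left out 5 of the 80 TO members. Of the 8 TO members with at least 100 Sertoli UMIs 4 remained in this set, so that somatic messages were reduced and not removed. Of 19863 genes tested, 4.19% were lower and 0.503% higher in TOs. The same 8 chromatin packaging genes fell, with a median log2 fold change of −5.06, and 10 of the 18 late spermatid genes fell, among them Tssk3, a kinase of spermatids. Of the flagellum genes 4 of 32 fell (Odf3, Fscb, Tekt5 and Akap4), as did 3 of 17 ion channel genes (Lrrc52, Atp1a4 and Catsper3). The packaging calls were lost here too when either TO library was left out, in fits where the testis libraries alone give the spread. In members under 20000 UMIs edgeR called 5 of the 12 packaging genes.

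The depth of a member decides how many genes can be detected in it, so members were next thinned to 1500 UMIs each, which left out 4 and 6 shallower TO members and none of the testis members. At this depth a TO member showed a mean of 1.14 and 0.816 of the 12 chromatin packaging genes in TO replicates 1 and 2 (21 and 49 members) and a testis member 5.47 and 6.41. The libraries did not overlap (0.980 ± 0.231 in TOs and 5.94 ± 0.667 in testes, SD, n = 2 each, exact permutation p = 0.333, the smallest possible). The late spermatid list gave 1.52 and 2.16 of 18 genes in TOs and 5.10 and 6.24 in testes. By contrast, the flagellum list gave 7.86 and 8.65 of 32 genes against 10.3 and 9.87, and the acrosome list 4.00 and 4.55 of 24 against 6.44 and 5.57, so at equal depth TO members had somewhat fewer genes of these lists too. With thinning to 3000 UMIs the flagellum means were 11.1 and 12.8 in TOs and 13.8 and 12.7 in testes, which overlapped.

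**Figure D4:**
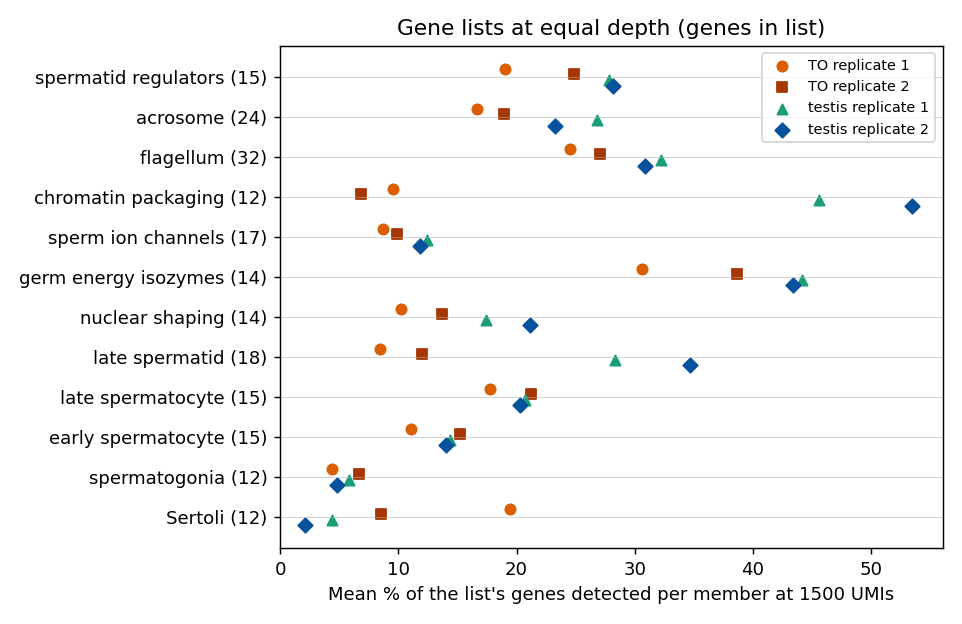
Mean percentage of each list's genes detected per member after thinning to 1500 UMIs (x axis), for 12 gene lists with their number of genes in brackets and 1 point per library. The chromatin packaging and late spermatid lists show the widest gaps between TO and testis libraries, and the late spermatocyte list overlaps between the groups.

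Levels of the lists changed with depth among the TO members. In members under 20000 UMIs, the flagellum list summed to 9132 and 11115 CPM in TOs and 16329 and 16957 CPM in testes, and in members with at least 20000 UMIs to 13985 and 20544 CPM in TOs (3 and 22 members) and 20466 and 20148 CPM in testes. The deep members of TO replicate 2 reached the testis level of flagellum genes, and those of TO replicate 1 lay below it. The other early lists had the same gap in members under 20000 UMIs (22 and 33 members in TOs): regulators summed to 2486 and 3064 CPM in TOs and 4187 and 4713 CPM in testes, acrosome genes to 3333 and 4445 CPM against 6900 and 5500 CPM, and energy genes to 5988 and 6982 CPM against 12030 and 10574 CPM. Summed over these classes, the overlap of these lists over all members thus came with the deep members of TO replicate 2. The change with depth was not steady. From 2500 to 5000 UMIs there were 5 and 14 TO members. Their flagellum list summed to 14246 and 15384 CPM, against 11390 and 15174 CPM in testes. Both TO libraries were higher there for acrosome genes (6512 and 6688 CPM against 4844 and 5573 CPM). Energy genes were higher too (10757 and 9795 CPM against 8051 and 9708 CPM), and regulators overlapped (4710 and 3751 CPM against 3037 and 4473 CPM). From 10000 to 20000 UMIs, with 4 members in each TO library, the flagellum list summed to 6566 and 5388 CPM. The testes had 19154 and 18296 CPM there. Most TO members of that bin had under 100 spermatid list UMIs per 10000. The packaging list with Phf7 included was also higher in the deep class, but stayed below the testes. It was 706 and 693 CPM in TO members under 20000 UMIs and 1013 and 1694 CPM in deeper ones. Testis members had 10966 and 73007 CPM and 10636 and 15760 CPM in these classes. The rise in TOs was that of Phf7. Without Phf7 the list was lower in the deep class of TO replicate 1 and almost level in TO replicate 2. In the deep class Tnp1 was 35.3 and 24.9 CPM in TOs and 1251 and 1979 CPM in testes, Prm1 0 and 1.47 CPM against 2919 and 3925 CPM, and Phf7 884 and 1349 CPM against 1368 and 1625 CPM. Deep barcodes can also hold more than 1 cell, which was not tested beyond the Scrublet scores above.

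**Figure D5:**
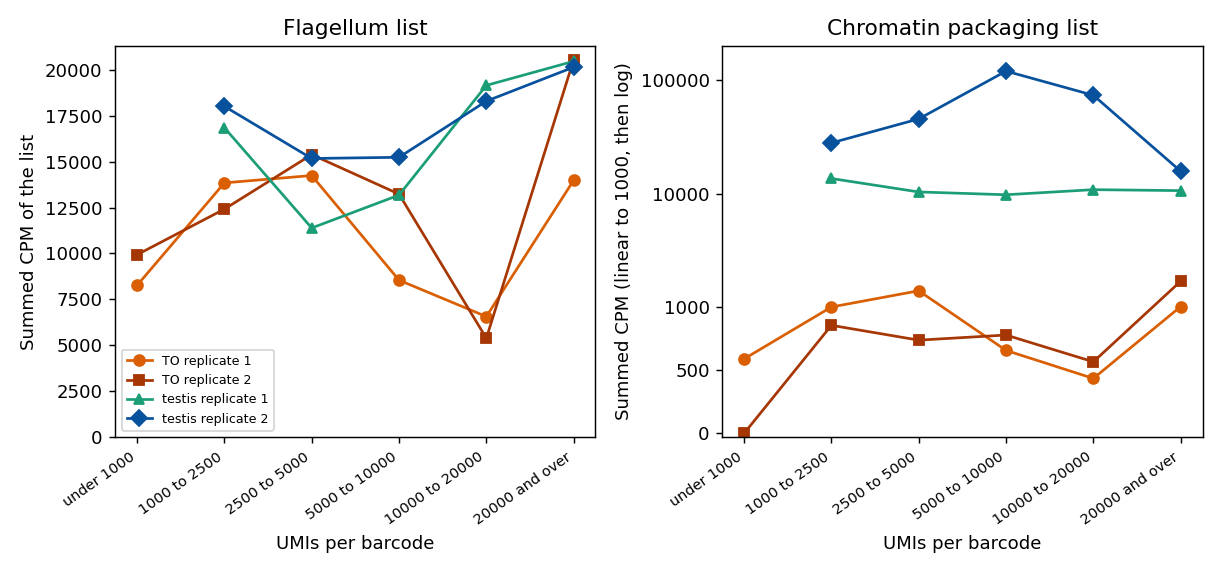
Level of the flagellum list (left) and the chromatin packaging list (right) by bin of total UMIs per barcode, as summed CPM (the packaging axis is linear to 1000 and logarithmic above), with 1 line per library. On the flagellum list the deepest TO replicate 2 members reach the testis level, whereas on the packaging list TO members stay below testis members in every bin that both have.

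Within single members the picture was the same. Chromatin packaging took a median of 5.78 and 9.43 of every 10000 UMIs in TO members and 71.0 and 145 in testis members. The highest TO member had 45.1, and 0 of the 80 TO members reached either testis median, while 28.9% and 11.0% of testis members lay at or under that highest value. For the late spermatid list, 1 of 80 TO members reached the testis medians (51.0 and 53.6 per 10000). For flagellum genes 26 of 80 reached each testis median, for acrosome genes 26 and 33, and for ion channels 37 and 39. The members thus varied among themselves on the early lists, and all of them lay below the testis medians on packaging.

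On the late spermatocyte list the groups overlapped over all members. The late spermatocyte list, genes of pachytene and the meiotic divisions, summed to 3176 and 4893 CPM in TO members and 3498 and 3463 CPM in testis members, and 42 and 43 of the 80 TO members reached the testis medians. Of its 14 tested genes edgeR called 0 and DESeq2 0, with 1 lower and 0 higher at an unadjusted p under 0.05 (median log2 fold change 0.02). In members under 20000 UMIs the list summed to 2147 and 2843 CPM in TOs, against 3239 and 2741 CPM in testes. TO replicate 1 was thus below both testis libraries. The bins within this class differed. From 10000 to 20000 UMIs both TO libraries were lower, at 2013 and 1638 CPM against 3759 and 2880 CPM. From 2500 to 5000 UMIs both were higher, at 4012 and 3334 CPM against 2487 and 2926 CPM. In members with at least 20000 UMIs the list was 4465 and 5173 CPM against 3981 and 4877 CPM. Hspa2, the heat shock protein of spermatocytes, was 1177 and 1864 CPM in TOs and 1149 and 1072 CPM in testes, Clgn, a chaperone of the endoplasmic reticulum in germ cells, 424 and 668 CPM against 602 and 563 CPM, and Adam3, a sperm surface protein that needs it, 225 and 572 CPM against 524 and 531 CPM. At 1500 UMIs the list gave 2.67 and 3.18 genes per TO member and 3.11 and 3.04 per testis member (exact permutation p = 1), and at 3000 UMIs 4.46 and 5.13 against 4.44 and 4.03, with both TO libraries higher (exact permutation p = 0.333, the smallest possible). Of the early spermatocyte genes edgeR called 0 of 15 (2 at an unadjusted p under 0.05, and 1 called by DESeq2), of the spermatogonial genes 0 of 12 (1 and 0), and of the general germ cell genes 0 of 8 (0 and 0). Of the synaptonemal complex genes among them, Syce2 was 73.3 and 163 CPM in TOs and 415 and 737 CPM in testes, Syce3 241 and 305 CPM against 419 and 239 CPM, and Syce1 162 and 438 CPM against 358 and 295 CPM. Dmrtb1, a regulator of the entry into meiosis, was 403 and 1035 CPM against 615 and 523 CPM, and Mael, of the piRNA pathway, 445 and 703 CPM against 466 and 386 CPM.

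The genes higher in TO members included genes of the Sertoli cell, the somatic nurse cell of the tubule. Of the 11 tested Sertoli genes 2 rose (0 without testis replicate 2, without either TO library or in members under 20000 UMIs), Sox9 (126 and 35.5 CPM in TOs, 8.00 and 4.796 CPM in testes, log2 fold change 3.00 ± 0.53 SE, adjusted p = 0.00211) and the tight junction gene Cldn11 (262 and 52.3 CPM against 18.7 and 4.95 CPM, 3.09 ± 0.65, adjusted p = 0.00747). The Sertoli list summed to 4286 and 1055 CPM in TO members and 611 and 255 CPM in testis members, with Aard as its most abundant gene and Amh at 0 in TOs. Of these UMIs, 80.7% and 87.0% lay in 3 and 5 members with at least 100 Sertoli UMIs, but low counts were found in most TO members: 25 of 25 and 51 of 55 had at least 1 Sertoli UMI, with a median of 18.2 and 2.27 per 10000 UMIs, against 3706 of 8603 and 1744 of 6321 testis members, with a median of 0 in both. In germ-dominant members thinned to 1500 UMIs, 1.83 and 0.787 Sertoli genes were detected per TO member and 0.438 and 0.204 per testis member (exact permutation p = 0.333, the smallest possible). Their part in the differences between the groups was not tested. Of the stroma list 4 and 8 members with at least 50 UMIs held 68.1% and 67.4%, and the list summed to 1983 and 949 CPM in TOs and 1099 and 582 CPM in testes. Macrophage genes (73.3 and 56.8 CPM against 130 and 107 CPM) and endothelial genes (0 and 11.0 CPM against 27.0 and 24.5 CPM) were low in all libraries.

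Other genes that rose have no entry on the lists. Tnfrsf12a, the receptor of the cytokine TWEAK, was 157 and 75.5 CPM in TO members and 4.32 and 3.13 CPM in testis members (log2 fold change 4.45 ± 0.51 SE, adjusted p = 0.000406). Less is known of 1700104B16Rik (62.8 and 60.7 CPM against 1.97 and 1.56 CPM), Gm3072 and Tmem255a, which were also among those with the largest fold. Both TO libraries were above both testis libraries for each of them, which the choice of these genes required. Of all genes tested, 52.2% did not overlap between the groups. None of the genes named for the largest fold in this comparison was called without TO replicate 1, without TO replicate 2, within the study's limits on genes and UMIs or in members under 20000 UMIs. Of the 8 genes of the Leydig cell, the androgen-making cell between the tubules, 1 fell and 0 rose, and the list summed to 513 and 182 CPM in TO members and 653 and 587 CPM in testis members. Cyp17a1, an enzyme of androgen synthesis, fell from 124 and 245 CPM in testis members to 20.9 and 1.29 CPM in TO members (−5.58 ± 0.93 SE, adjusted p = 0.00133), and it was not called in these 4 alternatives either. Hsd3b1, another enzyme of that pathway, went the other way in TO replicate 1, at 209 and 16.1 CPM in TO members and 54.0 and 26.8 CPM in testis members, and did not pass between all members, while it was called higher between germ-dominant members (251 and 16.0 CPM against 14.6 and 6.70 CPM).

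The 8 genes that chose the members had these levels, given without a test. Tex36 was 131 and 438 CPM in TO members and 538 and 438 CPM in testis members, Acrv1, an acrosomal vesicle protein, 241 and 243 CPM against 577 and 327 CPM, and Spaca1 199 and 540 CPM against 539 and 389 CPM. Zpbp, which binds the zona pellucida, was 314 and 503 CPM against 453 and 378 CPM, and Spaca3, a lysozyme-like acrosomal protein, 136 and 212 CPM against 402 and 201 CPM. Spaca1, Zpbp and Spaca3 overlapped between the groups. Ccer1 was 89.0 and 190 CPM against 326 and 217 CPM, Chd5, a chromatin remodeller of spermatids, 68.0 and 62.0 CPM against 115 and 134 CPM, and Sun5, which joins head and tail, 41.9 and 26.5 CPM against 178 and 84.8 CPM.

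Within TOs, members were set beside other barcodes drawn from the same library and the same depth bin, 10 for each member. This contrast is the one the rule used, so its counts are given as a description and nothing is read from them. Of 12966 genes, 22.7% were higher and 9.84% lower in members. All 30 tested flagellum genes, all 14 energy genes, 20 of 23 acrosome genes, 13 of 15 regulators and 6 of 7 tested chromatin packaging genes were among the higher genes, and 11 of 12 stroma genes and 8 of 9 macrophage genes among the lower. Phf7 was 638 CPM in the members of TO replicate 1 and 37.7 CPM in the other barcodes, and 1229 and 95.9 CPM in TO replicate 2. The gene 1700067P10Rik was 68.0 and 281 CPM in the members and had no UMI in the other barcodes drawn. Sult1e1, an estrogen sulfotransferase, was 20.9 and 0 CPM in members and 769 and 102 CPM in the others.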

How the data were processed

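UMI counts per gene and barcode were deposited by the authors as raw matrices of 32285 genes, without normalization; Cell Ranger 7.1.0 and mm10 are named in the submitters' processing notes. The members and gene lists were chosen with earlier results of these data known. Member UMIs were summed per library and tested with edgeR 4.0.16 in R 4.3.3 (quasi-likelihood F test, TMM scaling, filterByExpr, adjustment over all genes tested), with calls at an adjusted p under 0.01 and a log2 fold change beyond 1 in either direction, thresholds taken from the study's methods, whose further minimum on the expression difference was not applied; SE is the log2 fold change divided by the root of F. Genes named were those of the rule and of the packaging list, the 3 most abundant of each other list in testis members, and the 5 called genes with the largest fold in each direction at 50 CPM or more whose libraries did not overlap; the other genes in the text, among them list genes that passed, were named after their values were seen. Thinning drew 1500 UMIs per member with a fixed seed. Genes at 0 in TOs were bounded by a floor of 3 counts over both TO libraries. Scrublet was run in scanpy 1.11.5 and marked 0.8% per 1000 barcodes, in place of DoubletFinder. Python 3.11.15 with numpy 2.4.6, scipy 1.17.1, pandas 2.3.3 and matplotlib 3.10.9, and DESeq2 1.42.0 as an alternative, were used. The test was checked on simulated counts. Exact permutation tests of 2 against 2 libraries cannot go below p = 0.333. Promoters came from RefSeq. Some genes that the naming rule takes, most of them of the somatic lists, are not reported here.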

Additional observations from a re-analysis of the deposited data

How the results depend on the processing

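The number of TO members depended on the rule: it was 348 with at least 2 rule genes, 48 with at least 5 and 43 within the study's limits on genes and UMIs, against 80. The lower share of members in TOs and the lower numbers of packaging, late spermatid, acrosome and flagellum genes per member at equal depth kept their direction under every alternative run for them.

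Counts of called genes moved more. Between all members (62 higher, 553 lower) they were 196 and 1143 at an adjusted p below 0.05, 135 and 626 with upper quartile scaling, which moved the median log2 fold change of all genes from −0.22 to 0.0018, 143 and 972 without the filter on low counts, 156 and 775 with at least 4 rule genes, 151 and 916 at most 5% mitochondrial UMIs, and 324 and 876 with testis members drawn to the depth of the TO members. Within the study's limits on genes and UMIs edgeR called 0 and 0 (2793 at an unadjusted p under 0.05), and 0 packaging genes. Leaving out 1 library gave 0 to 24 higher and 0 to 467 lower, and 0 to 7 packaging genes. Between germ-dominant members (100 higher, 832 lower) the counts were 240 and 1385 at an adjusted p below 0.05, 51 and 549 with DESeq2, 235 and 895 with upper quartile scaling, 11 and 206 without the filter on low counts, 229 and 1098 with at least 4 rule genes, 192 and 994 at most 5% mitochondrial UMIs, 13 and 180 within the study's limits, 63 and 724 without the top Scrublet share, and 242 and 829 with testis members drawn by depth. Leaving out 1 library gave 0 to 33 higher, 0 to 522 lower and 0 to 8 packaging genes. Without TO replicate 2 edgeR called 0 genes in both comparisons (4656 and 4204 at an unadjusted p under 0.05), and without TO replicate 1 it called 2 and 0, and 5 and 10.

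Alternatives chosen after seeing the data were members under 20000 UMIs, which gave 0 and 0 between all members (3957 at an unadjusted p under 0.05; 0 packaging genes) and 2 and 27 between germ-dominant members (5 packaging genes), and members thinned to 1500 UMIs before summing, which gave 19 and 316, and 11 and 245. Without the 2 deepest TO replicate 2 members the counts were 77 and 600, and 90 and 795.

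With the replicate number as a block, 123 and 920 genes were called between all members, and 109 and 901 between germ-dominant members, with 7 packaging genes in each. The labels give no shared batch for a number, and the deviations of same-numbered libraries correlated at 0.0583 and 0.0377 over genes, so the libraries share only a number.

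Members against other TO barcodes gave 2945 higher and 1276 lower genes. DESeq2 gave 2276 and 379, the fit without the filter on low counts 2752 and 2060, at least 4 rule genes 2155 and 802, and members under 20000 UMIs 1926 and 936. Leaving out a library there leaves no residual degrees of freedom, so no such test was run. None of the genes followed through the alternatives of the 3 comparisons reversed its direction. The mean number of late spermatocyte genes per member did: TO minus testis was −0.152 at 1500 UMIs and 0.564 at 3000 UMIs. The causes of these shifts were not tested. With 25 and 55 members, the TO sums held 191091 and 1549249 UMIs, so that genes of low level could not be measured in TO replicate 1.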
